A study of Mus musculus with 2 samples.

Results

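The cells described here are macrophages of the mouse temporomandibular joint (TMJ) that carried transcripts of Mmp12, Dcstamp or Acp5. In the library of inflamed joints, 308 of 4014 cells met the selection, a share of 7.67% (exact 95% interval 6.87 to 8.54). In the library of control joints, 1 of 2667 cells met it, a share of 0.0375% (0.000949 to 0.209). A cell was taken when it held at least 5 unique molecular identifiers (UMIs, each counting 1 captured RNA molecule) of Mmp12, Dcstamp and Acp5 together and at least 10 UMIs of the myeloid genes Ctss and Lyz2 together. Cells were left out when the neutrophil genes S100a8 and S100a9 made up 2% or more of their UMIs, when they held 2 or more UMIs of the endothelial genes Pecam1 and Cdh5, or when they held 3 or more UMIs of the fibroblast genes Dpt, Clec3b and Col14a1. Because measured values chose the cells, the levels of these genes in them, and the share of cells itself, are descriptions.

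The 2 single-cell RNA sequencing libraries came from wild-type C57BL/6 mice aged 8 to 10 weeks, female according to the methods, whose TMJs were injected on both sides with 10 µL of PBS or of complete Freund's adjuvant (CFA, 5 mg/mL), an oil emulsion with killed mycobacteria that provokes joint inflammation. Tissue was taken 3 weeks after injection, with n = 3 given in the methods, and condyle and disc were digested with the adjoining temporal bone, muscle and ligament in 1 tube per group. Cells carrying CD45, the surface protein of blood-derived cells, were removed with magnetic beads before loading, so every share of immune cells is a share of a depleted suspension. The labels and the methods name different versions of the 10x chemistry. With 1 library per condition, no difference between PBS and CFA has a replicate check, and all intervals given here cover counting error only.

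Macrophages arise from monocytes or from precursors laid down before birth, and they take on different gene programs in inflamed tissue. Osteoclasts, the multinucleated cells that dissolve bone, form from the same lineage when precursors fuse, and they secrete acid through a vacuolar proton pump and digest collagen with cathepsin K. Acp5 encodes tartrate-resistant acid phosphatase, the classical histochemical marker of osteoclasts. Dcstamp encodes a membrane protein needed for osteoclast precursors and macrophages to fuse. Mmp12 encodes macrophage elastase, a secreted protease that cuts elastin, and is known more for lung and vessel macrophages than for osteoclasts.

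Mmp12 lies on chromosome 9 (chr9:7344381-7369499, plus strand), Acp5 on chromosome 9 (chr9:22126727-22135711, minus strand) and Dcstamp on chromosome 15 (chr15:39745930-39760938, plus strand) of GRCm38. The promoters below are shown because they belong to the selecting gene with the highest level (Mmp12, which has 2 annotated starts), to the gene whose level followed Mmp12 most closely from cell to cell (Prdx1, a peroxide-reducing enzyme) and to the enzyme that restores oxidised peroxiredoxins (Srxn1, sulfiredoxin). Each is the 250 bases before a RefSeq transcription start in GRCm38.p6, read 5′ to 3′ on the gene's strand. The windows are chr9:7344147-7344396 and chr9:7347124-7347373 (both plus strand) for the Mmp12 starts, chr4:116685349-116685598 (plus strand) for Prdx1 and chr2:152105274-152105523 (plus strand) for Srxn1. Capitals mark matches, on either strand, to TGANTCA, the letters bound by AP-1 factors, or to TGACNNNGC, the core of the antioxidant response element. The 2 searches can overlap.
Mmp12, first start: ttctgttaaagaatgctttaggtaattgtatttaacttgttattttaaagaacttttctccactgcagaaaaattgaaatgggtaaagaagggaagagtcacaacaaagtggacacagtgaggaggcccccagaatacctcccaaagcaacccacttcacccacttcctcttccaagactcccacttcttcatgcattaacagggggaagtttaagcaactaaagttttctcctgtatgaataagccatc
Mmp12, second start: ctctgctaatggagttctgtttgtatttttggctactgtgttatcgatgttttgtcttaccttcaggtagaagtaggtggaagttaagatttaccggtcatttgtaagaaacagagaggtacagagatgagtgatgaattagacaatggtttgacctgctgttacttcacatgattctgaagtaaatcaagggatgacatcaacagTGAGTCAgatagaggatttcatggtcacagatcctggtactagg
Prdx1: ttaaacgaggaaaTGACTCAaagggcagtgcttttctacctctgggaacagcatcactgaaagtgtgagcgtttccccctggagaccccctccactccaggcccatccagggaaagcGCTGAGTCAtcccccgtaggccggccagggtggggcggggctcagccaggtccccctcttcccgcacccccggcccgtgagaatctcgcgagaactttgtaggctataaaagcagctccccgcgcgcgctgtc
Srxn1: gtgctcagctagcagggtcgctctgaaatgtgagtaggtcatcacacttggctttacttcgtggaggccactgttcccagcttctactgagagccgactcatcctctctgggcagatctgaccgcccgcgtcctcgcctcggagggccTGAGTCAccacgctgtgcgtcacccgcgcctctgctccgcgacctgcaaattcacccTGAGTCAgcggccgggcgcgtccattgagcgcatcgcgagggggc
Prdx1 held 2 matches to TGANTCA, which began 237 and 131 bases before the start, and 1 match to TGACNNNGC that began 133 bases before it and overlaps the nearer one. Srxn1 held 2 matches to TGANTCA, which began 102 and 45 bases before the start. The second Mmp12 window held 1 match to TGANTCA, which began 44 bases before the start, and the first held none. Of 32851 promoters of the same length, 2217 (6.75%) held TGANTCA and 3338 (10.2%) held TGACNNNGC. Among the 12 of 14 iron and oxidative stress genes with a promoter in the RefSeq table, TGANTCA was present in Srxn1, Prdx1 and Mt2, and TGACNNNGC in Gclm, Txnrd1, Prdx1 and Mt2. Among 14 lipid-laden macrophage genes with a promoter, TGANTCA was present in 3 and TGACNNNGC in 0. Counted per gene, 7.82% of all 27025 genes held TGANTCA and 11.5% held TGACNNNGC. A match is a run of letters and says nothing about binding in these cells. Of 8 genes looked up, 6 were matched, and Dcstamp and Lpl were not. The windows of the matched genes that are not printed, Acp5 (3 starts), Akr1a1 (1 start) and Spp1 (2 starts), held 0 matches to TGANTCA. The third Acp5 window held 1 match to TGACNNNGC, which began 184 bases before the start.

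The 3 selecting genes admitted different cells. Mmp12 ranged from 0 to 629 UMIs per cell with a median of 39.5, Dcstamp from 0 to 135 with a median of 6.5, and Acp5 from 0 to 127 with a median of 10. Each gene alone reached 5 UMIs in a large share of the cells, 72.4% for Mmp12 (67.0 to 77.3), 73.4% for Acp5 (68.1 to 78.2) and 56.8% for Dcstamp (51.1 to 62.4), and all 3 did so in 122 of 308 cells (39.6%). Mmp12 made up more than 50% of the selecting UMIs in 190 cells (61.7%), whereas 44 cells had none of it. No Dcstamp UMI was found in 88 cells and no Acp5 UMI in 20, all 3 genes had a UMI in 184 cells (59.7%), and in 42 cells Acp5 was the only gene to reach 5 UMIs. At the edge of the rule, the 21 cells with 5 or 6 selecting UMIs had levels of 132 CPM (UMIs of a gene per 1000000 UMIs of the same cells) for Mmp12, 236 CPM for Acp5 and 2325 CPM for C1qa, and the 41 cells just outside, with 3 or 4 UMIs, had 67.3, 151 and 1331 CPM. Spp1 (osteopontin), which the rule did not use, was lower just inside (368 CPM) than just outside (1155 CPM). The level just outside includes a single cell at 19572 CPM of Spp1 and was not recomputed without that cell. Prdx1 was higher inside, at 3635 against 2545 CPM. Both groups at the edge were shallower (median 11827 and 13911 UMIs) than the selected cells as a whole (median 28572, range 1410 to 96782). Of 349 cells that met both UMI minimums, 41 were removed by the limits on other lineages, which were met by 17 cells for neutrophil genes, 25 for endothelial genes and 2 for fibroblast genes.

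Most CFA transcripts of the selecting genes were in these cells. The cells held 21.1% of the UMIs of the library's kept cells, but 90.9% of its Mmp12 UMIs, 87.9% of its Dcstamp UMIs and 80.8% of its Acp5 UMIs. Transcripts that did not select the cells were also concentrated in them, with 88.4% of the H2-M2 UMIs (a nonclassical MHC class I gene), 86.4% of the Itgax UMIs (integrin alpha X, CD11c) and 74.1% of the Spp1 UMIs (osteopontin). Cathepsin K was different, with 17.9% of the Ctsk UMIs in these cells. The 2667 kept PBS cells held 2 UMIs of Mmp12, 28 of Dcstamp and 435 of Acp5 (16.0 CPM). Its 1 selected cell had 5 Acp5 UMIs, none of Mmp12, Dcstamp, Arg1 or Ctsk, 1 of Spp1, 30, 25 and 28 of the complement genes C1qa, C1qb and C1qc, and 34 of the mannose receptor gene Mrc1 among 10991 UMIs. It was thus admitted by Acp5 alone, and the description that follows is of the 308 CFA cells.

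The remaining CFA cells gave 3 sets for comparison. The first was all 3706 other cells. The other sets passed the same myeloid and lineage limits but had fewer than 5 selecting UMIs, and comprised 154 C1q macrophages with at least 10 UMIs of C1qa, C1qb and C1qc, and 134 Ly6c2/Ccr2 cells with at least 3 UMIs of the monocyte genes Ly6c2 and Ccr2 and fewer C1q UMIs. Their values of C1q genes, and of Ly6c2 and Ccr2, are therefore set by how they were chosen. The Ly6c2/Ccr2 cells also held the progenitor genes Prtn3 (1166 CPM), Elane (565 CPM) and Mpo (359.9 CPM). Selected cells were deeper than both, with a median of 28572 UMIs and 4854 genes against 12048 and 3408 in C1q macrophages and 12406 and 3591 in Ly6c2/Ccr2 cells. For this reason shares of cells with a UMI are given after each cell was thinned to 5000 UMIs, which left 296, 145 and 128 cells. Endothelial cells (504 after thinning, median 5097 UMIs before it) are given beside them as cells of another lineage. Their shares hold free RNA together with any transcripts of their own, and the 2 were not told apart. Doublet scoring marked none of the selected cells, but it marked only 2 cells in the library and so found hardly any doublets. Of the 10 barcode sequences the libraries shared, 2 belonged to selected cells.

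**Figure D1:**
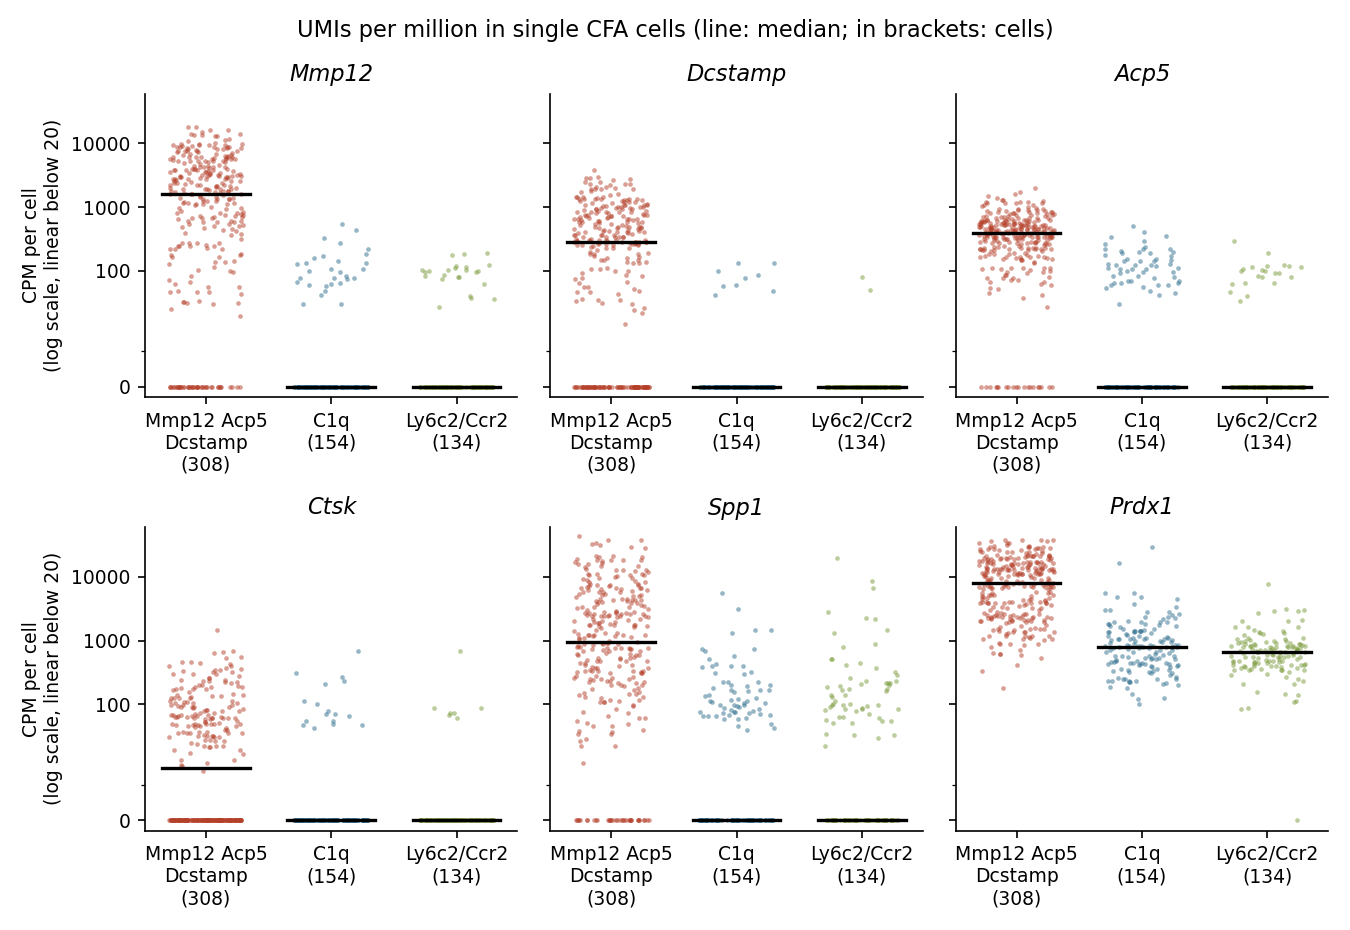
Level per cell in CPM on a log scale (linear below 20 CPM) for Mmp12, Dcstamp, Acp5, Ctsk, Spp1 and Prdx1, in the selected macrophages, C1q macrophages and Ly6c2/Ccr2 cells of the CFA library, with 1 point per cell and a line at the median. Mmp12, Dcstamp and Acp5 chose the cells, so their gap is set by the rule. Spp1 and Prdx1 did not choose them. Both correlated with Mmp12 among the selected cells (0.537 and 0.704), so their gap is not independent of the rule. Ctsk is at 0 in 153 of 308 selected cells.

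The osteoclast genes that the selection did not use gave a mixed picture, and the cells are called here Mmp12 Acp5 Dcstamp macrophages and not osteoclasts. Of 9 osteoclast markers without Acp5, the thinned cells held a median of 1 and at most 5. Thinned C1q macrophages also held a median of 1, and at most 3. At least 3 were present in 36 of 296 cells (12.2%), against 2 of 145 C1q macrophages (1.38%). Ocstamp, a partner of Dcstamp in cell fusion, had 11 UMIs in all 308 cells, the calcitonin receptor gene Calcr had 2, and the integrin gene Itgb3 had 13. Oscar, an osteoclast receptor, and Siglec15, a lectin of osteoclast precursors, had 0 UMIs. The carbonic anhydrase gene Car2, which supplies protons to the resorbing osteoclast, was at 4.47 CPM (3.22 to 6.05), within the interval of C1q macrophages.

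Ctsk (chr3:95499256-95509362, plus strand) ranged from 0 to 138 UMIs per cell with a median of 1. It was at 0 in 153 cells, reached 10 UMIs in 18 and reached 20 in 3. Its level was 79.9 CPM (74.2 to 85.8) in the Mmp12 Acp5 Dcstamp macrophages against 15.2 CPM in C1q macrophages, a ratio of 5.24 (3.64 to 7.82). It was 98.4 CPM in all other CFA cells. A single cell of 93760 UMIs held 18.4% of the Ctsk UMIs, and without it the level was 65.8 CPM. After thinning, 23.0% of the selected macrophages had a Ctsk UMI (18.3 to 28.2), against 5.52% of C1q macrophages and 2.38% of endothelial cells.

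Atp6v0d2 (chr4:19876841-19922605, minus strand), the proton pump subunit that is typical of osteoclasts and also takes part in fusion, ranged from 0 to 66 UMIs per cell with a median of 2. It stood at 233 CPM against 16.8 CPM in C1q macrophages, a ratio of 13.9 (9.86 to 20.2). With 10 CPM added to both levels the fold was 9.07, and 3.68 among cells of 10000 to 30000 UMIs. Ly6c2/Ccr2 cells had 0 UMIs of it, and against a floor of 3 UMIs over that set (1.57 CPM) it was at least 149-fold higher. After thinning it was detected in 42.9% of the selected macrophages, 2.07% of C1q macrophages and 0.992% of endothelial cells. Mmp9, the gelatinase of osteoclasts and neutrophils, ranged from 0 to 117 UMIs with a median of 0, and its level of 182 CPM was 7.47 times that of C1q macrophages (5.61 to 10.2). With 10 CPM added its fold was 5.59, and 2.16 among cells of 10000 to 30000 UMIs.

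No receptor or transcription factor of osteoclast formation in the lists was at least 2-fold higher than in C1q macrophages. For these comparisons a gene was called when its CPM, with 10 CPM added to both sides, differed at least 2-fold, among genes with a mean of at least 10 CPM. Against C1q macrophages, 3.17% of 7531 genes were at least 2-fold higher and 5.72% were at least 2-fold lower in the selected cells, with a median log2 difference of −0.20 over all genes. Of 9 receptor and signalling genes, none was higher and Tnfrsf11a, the receptor RANK, was lower, at 22.3 against 71.1 CPM. Of 13 transcription factors, none was higher and Fos was lower, at 1118 against 2248 CPM. Against Ly6c2/Ccr2 cells, Trem2, the kinase gene Src and the factor Mitf were at least 2-fold higher, and Plcg2 and Tfec lower. The osteoclast master factor Nfatc1 was at 46.3 CPM against 53.9 in C1q macrophages, a ratio of 0.860 (0.694 to 1.07). Its thinned share of 20.6% was below the 33.3% of endothelial cells. Among 17 subunits of the vacuolar proton pump, 1 was at least 2-fold higher than in C1q macrophages (Atp6v0d2), and their median log2 difference was 0.29. Against Ly6c2/Ccr2 cells, Nfatc1 was 1.13-fold (10 CPM added). The pump median there was 0.53, again with only Atp6v0d2 called higher.

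The difference in Tnfrsf11a depended on depth. Restricted to cells of 10000 to 30000 UMIs, its ratio to C1q macrophages (10 CPM added) was 0.580, no longer at least 2-fold. The same restriction left none of the receptor genes and none of the transcription factors called in either direction against C1q macrophages. Against Ly6c2/Ccr2 cells it left 2 receptor genes higher, and 1 transcription factor higher and 1 lower. Over all genes in this depth window, 169 of 7604 were at least 2-fold higher than in C1q macrophages and 254 were lower (median log2 difference −0.11). Against Ly6c2/Ccr2 cells, 459 of 7793 were higher and 645 were lower (median −0.195).

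**Figure D2:**
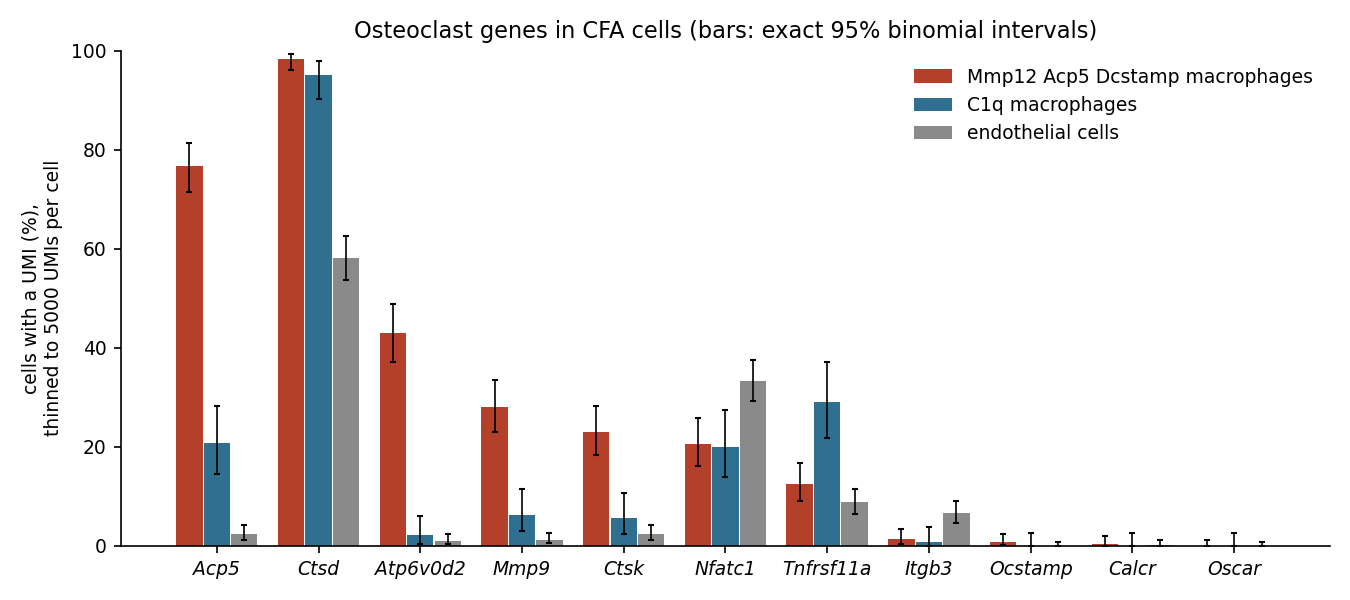
Share of cells with a UMI, in percent after thinning to 5000 UMIs, for osteoclast genes in the selected macrophages, C1q macrophages and endothelial cells of the CFA library, with exact 95% binomial intervals as error bars. Acp5 chose the cells, Atp6v0d2 and Ctsk (42.9% and 23.0%) and Mmp9 lie above both other sets, Nfatc1 and Tnfrsf11a do not, and Oscar was not detected in the selected cells.

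Genes of peroxide and iron handling, which the selection did not use, were high in the cells. Prdx1 (chr4:116685544-116700822, plus strand), which encodes the peroxide scavenger whose promoter is printed above, ranged from 2 to 1537 UMIs per cell with a median of 214, so that each selected cell held it. Its level of 11100.5 CPM was 7.46 times that of C1q macrophages (7.19 to 7.74, 1489 CPM) and stood against 854 CPM in Ly6c2/Ccr2 cells. Srxn1 ranged from 0 to 30 UMIs with a median of 2 and was 3.44 times as high as in C1q macrophages (2.68 to 4.49). Hmox1, heme oxygenase, which breaks down heme and frees its iron, ranged from 0 to 322 UMIs with a median of 11 and was 3.53 times as high (3.19 to 3.90). The 2 chains of ferritin, the iron store, took up a large part of the transcriptome, with Fth1 at 66684 CPM against 27180.3 (ratio 2.45) and Ftl1 at 11249 against 4690.3 (ratio 2.40).

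Of 11 genes of iron handling and oxidative stress tested, 8 were at least 2-fold higher than in C1q macrophages and none was lower, with a median log2 difference of 1.26. Besides those named they were Gclm (a subunit of the enzyme that starts glutathione synthesis, 210.3 against 83.8 CPM) and the metallothioneins Mt1 (624 against 266) and Mt2 (97.1 against 14.7). The iron exporter gene Slc40a1 was at 1.6 CPM against 13.7 and was too low to be tested. Among cells of 10000 to 30000 UMIs, 7 of 11 were higher, beside 169 of 7604 over all genes. The median there was 1.14, with Ftl1 at 1.53-fold and Gclm at 1.88-fold. The list was also high against Ly6c2/Ccr2 cells, where 10 of 12 genes were higher and none was lower. The background in that comparison, over 7735 genes, was 6.36% higher and 10.8% lower.

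Genes known from lipid-laden macrophages, not all of which handle lipid, formed the other large group. Spp1 (chr5:104435118-104441050, plus strand), a secreted adhesive phosphoprotein of bone matrix and of macrophages, ranged from 0 to 1669 UMIs per cell with a median of 27. At 4598 CPM it was 26.2 times as high as in C1q macrophages (23.6 to 29.2) and 9.77 times as high as in Ly6c2/Ccr2 cells (9.15 to 10.4). A single Ly6c2/Ccr2 cell at 19572 CPM of Spp1 weighs on the second ratio, which was not recomputed without that cell. Lpl, lipoprotein lipase, which frees fatty acids from lipoproteins, ranged from 0 to 346 UMIs with a median of 10 and was 22.7 times as high as in C1q macrophages (18.3 to 28.5). The fatty acid carrier Fabp5 was at 1973 against 755 CPM, the scavenger receptor Cd36 at 515 against 125, the tetraspanin Cd63 at 1919 against 499 and the lysosomal lipase Lipa at 243 against 106.

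Of 21 genes known from Trem2-dependent, lipid-laden macrophages, 11 were at least 2-fold higher than in C1q macrophages and 1 was lower, with a median log2 difference of 1.13. The lower gene was Apoe, apolipoprotein E, at 3452 against 9834 CPM. Trem2 itself, a lipid-sensing receptor, differed little, at 355 against 281 CPM (ratio 1.26, 1.15 to 1.38). In cells of 10000 to 30000 UMIs, 10 of 21 were higher and none was lower, beside 169 and 254 of 7604 over all genes. The median was 0.68. There Gpnmb was 1.40-fold and Apoe 0.503-fold, whereas Lpl was 12.6-fold. Spp1 was 12.9-fold there against 24.9-fold in all cells, and 4.00-fold against 9.59-fold in the comparison with Ly6c2/Ccr2 cells (all with 10 CPM added). The Ly6c2/Ccr2 cell at 19572 CPM of Spp1 lies within this depth window and weighs on both values of that comparison.

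Proteases of the matrix and the lysosome were partly higher. Of 9 metalloproteinase and inhibitor genes tested besides Mmp12, 4 were at least 2-fold higher than in C1q macrophages and none was lower, namely Mmp9, Mmp2 (44.5 against 5.59 CPM), Mmp19 (306 against 72.7) and the sheddase Adam8 (283 against 109.7). The collagenase gene Mmp13 was at 10.1 CPM and was not tested. Among lysosomal proteases, Ctsd (cathepsin D) was at 4991 against 1650.2 CPM and Ctsl at 1109 against 508, Ctsb was similar at 2034 against 2125, and the legumain gene Lgmn was lower at 293 against 824. Ctsl was 1.83-fold in cells of 10000 to 30000 UMIs.

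Arginine metabolism did not separate the cells from C1q macrophages as a group. Arg1 (chr10:24915221-24927484, minus strand), one of the genes first used to describe them, ranged from 0 to 295 UMIs per cell with a median of 2. It was detected in 45.9% of thinned selected cells against 16.6% of C1q macrophages, while its level of 705 CPM was 1.48 times theirs (1.38 to 1.59) and below the 2-fold limit. With 10 CPM added the fold was 1.47, but 1.96 among cells of 10000 to 30000 UMIs and 2.05 as a mean over single cells, the last past the limit. Nos2, the inducible nitric oxide synthase that competes with arginase for arginine, was at 257 against 235 CPM (ratio 1.10, 0.992 to 1.21). The arginine transporter Slc7a2 (978 against 251 CPM) and Ass1, which regenerates arginine (529 against 199), were at least 2-fold higher, Ass1 at 1.86-fold in cells of 10000 to 30000 UMIs. Of 10 genes of the list, these 2 were higher than in C1q macrophages and none was lower. Against Ly6c2/Ccr2 cells, 4 of 11 were higher and 1 (Slc7a1) was lower, with a median log2 difference of 0.062. The higher ones (10 CPM added) were Arg1 (6.00-fold), Nos2 (4.33), Slc7a2 (10.9) and Ass1 (2.86). A single cell held 44.5% of the Arg1 UMIs of the Ly6c2/Ccr2 cells. Against all other CFA cells, 5 of 11 were higher and none was lower.

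**Figure D3:**
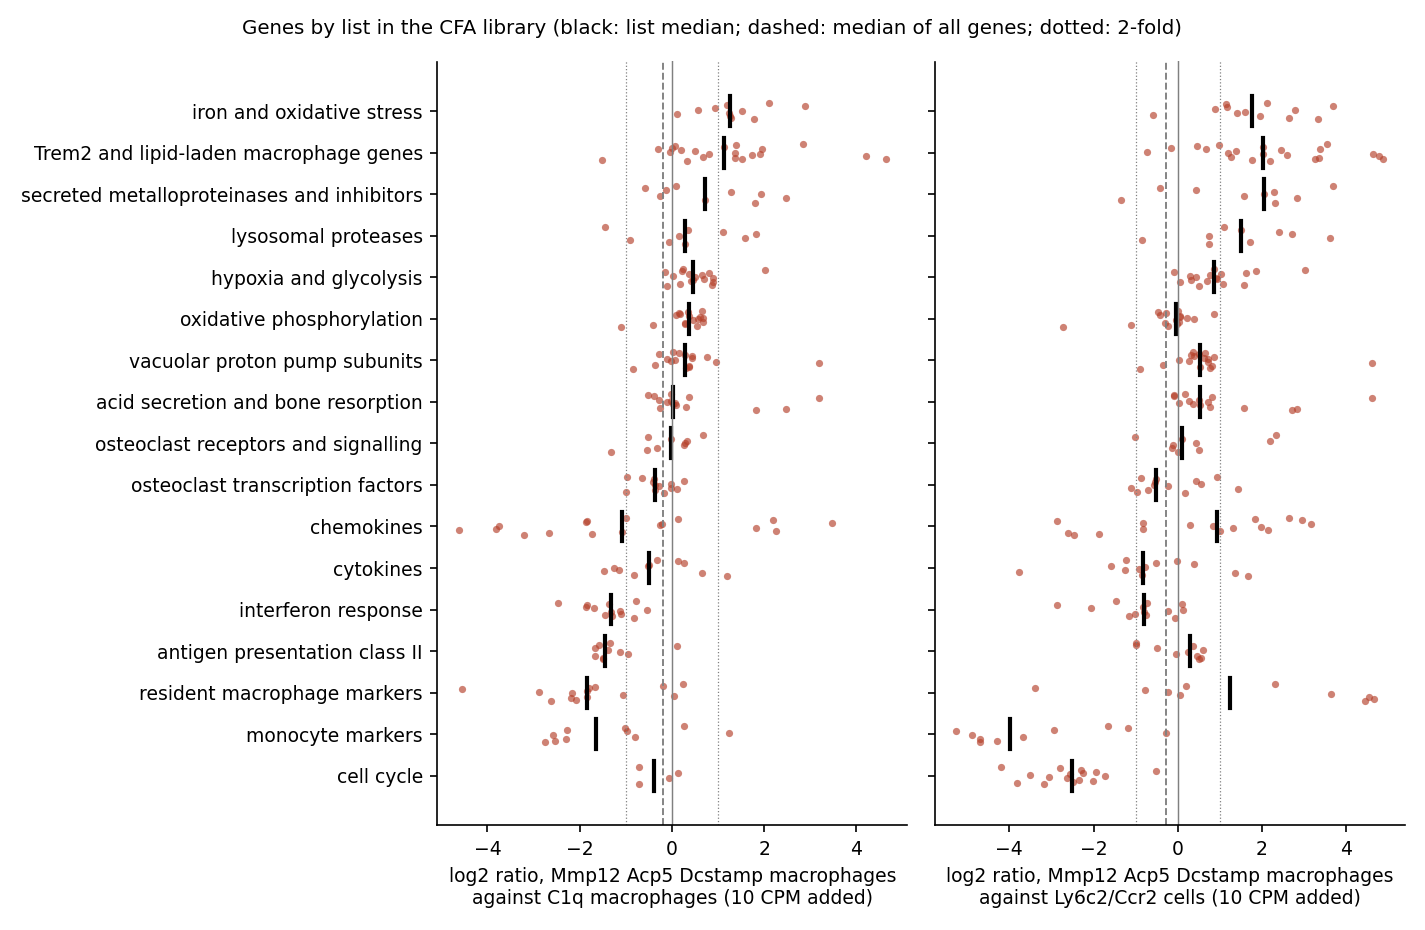
Log2 ratio (10 CPM added) of the selected macrophages to C1q macrophages and to Ly6c2/Ccr2 cells of the CFA library, with 1 point per tested gene in rows by list, a black line at each list's median, a dashed line at the median of all genes and dotted lines at 2-fold. The medians of the iron and oxidative stress list (1.26) and the lipid-laden macrophage list (1.13) lie right of the upper dotted line against C1q macrophages, and those of the class II (−1.44) and resident macrophage (−1.84) lists lie left of the lower one.

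Secreted signals were shifted in kind against C1q macrophages. Of 17 chemokine genes, 4 were at least 2-fold higher than in C1q macrophages and 9 were lower. The higher ones were Ccl6 (2170.5 against 449 CPM), Ccl9 (987 against 271), the neutrophil attractant Cxcl3 (264 against 14.7, ratio 17.9, 12.4 to 26.8) and Cxcl14. The lower ones included the monocyte attractants Ccl2 (7.13 against 148 CPM), Ccl7 (8.09 against 434) and Ccl12 (4.15 against 179.9), as well as Ccl3, Ccl4, Ccl5, Ccl8 and the interferon-induced Cxcl9 and Cxcl10. Single cells held 67.1% of the Ccl7 and 42.4% of the Ccl8 UMIs of the selected macrophages. In cells of 10000 to 30000 UMIs Ccl5 was 0.610-fold, and Ccl6 was 2.51-fold against 4.75-fold in all cells. The median log2 difference of the chemokines was −1.08 against C1q macrophages. Against Ly6c2/Ccr2 cells it was 0.92, with 7 of 16 higher and 4 lower.

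Of 11 cytokine genes tested, 1 was higher than in C1q macrophages and 3 were lower. Il1a was higher (201 against 81.8 CPM), Il6, Il10 and Il18 were lower, and Il1b, at 1087 against 1923 CPM, and Tnf, at 109 against 161, were within the 2-fold limits. Inhba, the activin A subunit, was at 1827 against 307 CPM (ratio 5.95, 5.48 to 6.46), with a median of 38 UMIs per cell. Among growth factors, Hbegf and Areg, both ligands of the EGF receptor, were higher (38.2 against 6.10 and 53.2 against 13.7 CPM), Pdgfc and Gdf15 were lower, and 9 of 13 were within the limits. Areg was 1.99-fold in cells of 10000 to 30000 UMIs. Against Ly6c2/Ccr2 cells, 7 of 11 growth factors were higher and none was lower, and 2 of 12 cytokines were higher and 4 were lower.

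Genes of resident macrophages and antigen presentation were low against C1q macrophages. Of 10 class II presentation genes, none was higher and 8 were lower, with a median log2 difference of −1.44. Cd74, the invariant chain, ranged from 0 to 546 UMIs with a median of 98.5 and was at 4078 against 10674 CPM, and H2-Aa was at 1807 against 5123. These genes were not absent, since 95.3% of the thinned selected cells had a Cd74 UMI, against 41.7% of endothelial cells, and against Ly6c2/Ccr2 cells none of the 10 was called. In cells of 10000 to 30000 UMIs, 5 of the 10 were lower than in C1q macrophages, beside 254 of 7604 over all genes. The median there was −0.96, with Cd74 at 0.549-fold and H2-Aa at 0.532-fold.

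Mrc1 was at 15.4 against 587 CPM, and Folr2 (2.98 against 85.9), Lyve1 (0.958 against 29.5) and Cd163 (0.319 against 25.9), receptors of tissue-resident macrophages, were nearly missing. Of 14 resident markers, 11 were lower and none was higher, although the C1q genes among them were fixed by how C1q macrophages were chosen. One cell held 47.1% of the Cd163 UMIs of the C1q macrophages. Interferon-response genes followed the same direction, with 10 of 13 lower (median log2 −1.33). In cells of 10000 to 30000 UMIs, 6 of 13 were lower (median −0.89), beside 254 of 7604 over all genes. Of 10 monocyte markers, 6 were lower than in C1q macrophages, among them Plac8 at 93.6 against 496 CPM, and Hp (haptoglobin) was higher. Cell cycle genes summed to 156 CPM in the selected cells, 202 CPM in C1q macrophages and 1798 CPM in Ly6c2/Ccr2 cells, and against the last set 15 of 16 were lower.

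Some of the largest ratios to C1q macrophages belonged to genes outside these lists. They were H2-M2 (731 against 43.2 CPM, from 0 to 443 UMIs per cell with a median of 1), Orm1, an acute-phase plasma protein (117 against 1.02), the adhesion gene Clmp (745 against 56.4), Chst11, which sulfates chondroitin (718 against 84.3), and Mfge8, a bridge to dying cells (108 against 6.10). Among cells of 10000 to 30000 UMIs the fold with 10 CPM added was 6.39 for H2-M2 (13.9 in all cells), 6.63 for Clmp (11.4) and 2.73 for Mfge8 (7.31). At the low end were Psd3 (6.07 against 234 CPM), Slc9a9 (23.9 against 316) and Tmem176b (11.5 against 161). Elane and Prtn3, granule proteases of myeloid progenitors, also ranked there, but 98.1% and 91.1% of their UMIs in C1q macrophages came from 1 cell. Against Ly6c2/Ccr2 cells the highest ratios were those of H2-M2, Gpnmb, Lpl and Clmp, and the split of called genes depended on the scaling. Of the genes called there, 37.0% were higher, and 51.8% were higher when each set was scaled by the median ratio of genes.

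Against all other cells of the CFA library, 6.10% of 9108 genes were at least 2-fold higher and 23.4% were at least 2-fold lower in the selected macrophages. The leading higher genes were H2-M2, Itgax, Prdx1, Atp6v0d2, Cxcl3, Ccl9 and Ccl6. The leading lower genes included Ngp and Camp of neutrophil granules and Sparc, Col1a1, Col1a2, Col3a1, Dcn, Ibsp and Col2a1 of connective tissue, bone and cartilage. Transcripts of these lineages were not at 0, although the selection itself capped Pecam1, Cdh5, Dpt, Clec3b, Col14a1, S100a8 and S100a9, which are among the markers summed here. The 7 endothelial markers summed to 57.4 CPM (1887 in the other cells), of which Flt1 made up 49.8, the 8 bone and cartilage markers to 138 (Dmp1 at 0, and Runx2, which macrophages also carry, at 104), and the 10 fibroblast and mural markers to 199. In the last list, Acta2 and Prg4, the lubricin gene of lining fibroblasts, exceeded C1q macrophages, but single cells held 41.3% and 25.1% of their UMIs, and Prg4 was 1.69-fold in cells of 10000 to 30000 UMIs. Neutrophil markers summed to 909 CPM against 1326 in C1q macrophages, with a per-cell range of 0 to 21314 and a median of 368. What part these transcripts had in any result was not tested.

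Over the 296 thinned cells, Spearman's correlation of Mmp12 with Acp5 was 0.0268, that of Mmp12 with Dcstamp 0.294 and that of Acp5 with Dcstamp 0.0137. These are descriptions of cells from 1 library. Choosing cells on the sum of the 3 genes admits cells high in only 1 of them, which lowers these correlations, so they do not show how the genes vary in other macrophages. Mmp12 also followed the depth of the cell (0.206). Of 701 genes outside the selecting genes with at least 300 UMIs in the thinned cells, Prdx1 had the highest correlation with Mmp12 (0.704), followed by Lpl (0.608), Akr1a1, an aldehyde reductase (0.578), Spp1 (0.537), Alas1, the first enzyme of heme synthesis (0.501), and Cd9 (0.493). The lowest were those of C1qc (−0.372), Ms4a6c (−0.370), Cd74 (−0.365) and H2-Ab1 (−0.351). Arg1 was unrelated to Mmp12 (−0.00326) and correlated weakly with Nos2 (0.229).

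To show these correlations as levels, the same cells were divided by thinned Mmp12 UMIs into 71 cells with 0, 93 with 1 to 9, 83 with 10 to 29 and 49 with 30 or more. These are ranges along a scale, with 22 cells at 8 to 11 UMIs and 27 at 25 to 34. Their median depths were 22261, 29159, 35687 and 31705 UMIs. From the lowest to the highest range, the level of Prdx1 was 3576, 8438, 13189 and 20363 CPM, that of Spp1 946, 2482, 6507 and 8977, and that of Lpl 192, 647, 1158 and 2003. All 3 stood higher in each range than in the one before it.

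C1qa ran the other way, at 1182, 418, 214 and 69.9 CPM, as did Apoe at 7893, 3236, 2075 and 1494, Cd74 at 6773, 3918, 3508 and 2448, and Ccl5 at 1188, 613, 245 and 120.3. Acp5 was nearly level, at 439, 480.4, 468 and 443 CPM. Fth1 changed little, from 59889 to 69195 CPM.

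The osteoclast genes did not share 1 pattern along this scale. Ctsk was at 29.4, 49.3, 72.3 and 205 CPM and Mmp9 at 53.9, 106, 169.9 and 488, both highest in the 49 cells with the most Mmp12. The cell with 138 Ctsk UMIs, which also held 574 Mmp12 and 37 Acp5 UMIs, is one of them, and without it Ctsk was at 128 CPM there. Atp6v0d2 peaked in the third range (73.9, 207, 329 and 273 CPM). Correlations of Ctsk with Acp5 (0.00206), Dcstamp (−0.0268), Mmp9 (0.0984) and Atp6v0d2 (0.101) were all near 0 at this depth. Those with Lpl (0.270), Mmp12 (0.256) and Spp1 (0.154) were higher. Only 23.0% of the thinned cells had a Ctsk UMI, which limits all of these values. Acp5, Dcstamp and Mmp12 are also selecting genes, so the rule shapes their spread. C1q transcripts were common in the selected cells as counted, with 161 of 308 (52.3%) holding at least 10 C1q UMIs, enough for the C1q set had they not been selected, and 21 (6.82%) would have met the Ly6c2/Ccr2 limits.

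**Figure D4:**
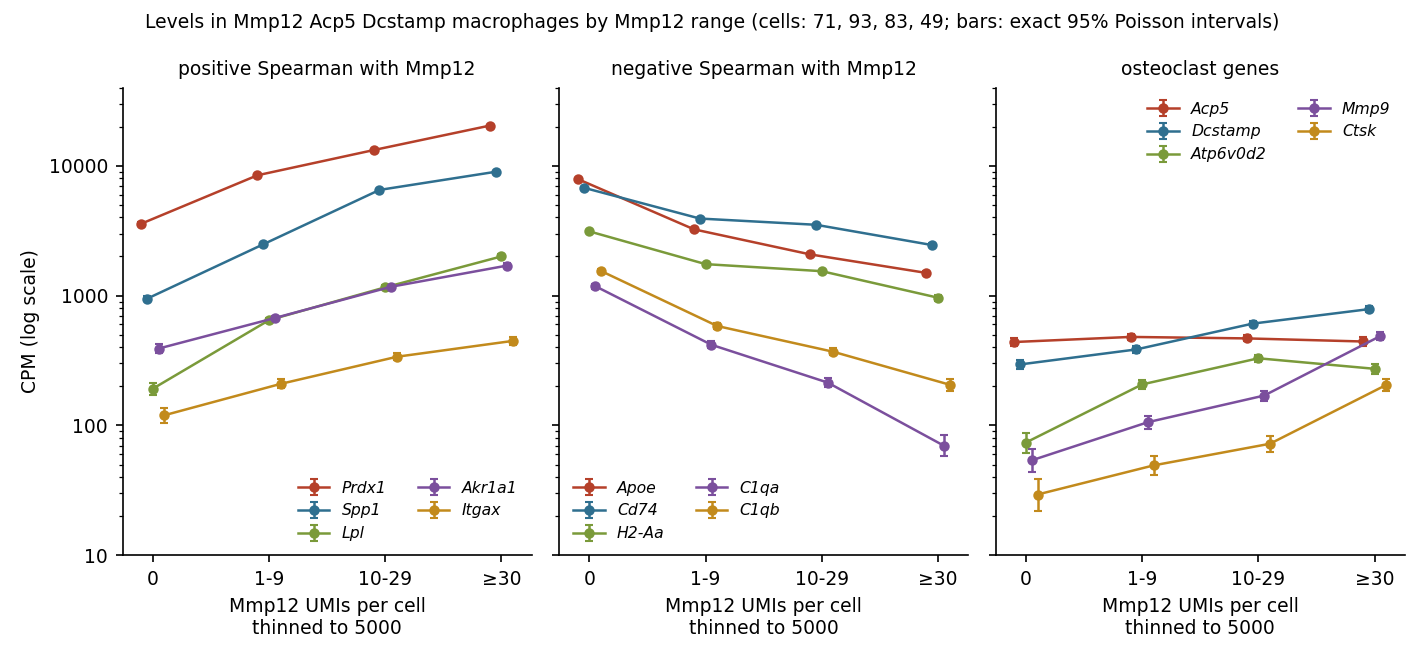
Level in CPM on a log scale (points, with exact 95% Poisson intervals) of genes in the selected macrophages by thinned Mmp12 UMIs, in 71, 93, 83 and 49 cells. Prdx1, Spp1 and Lpl stand higher in each range, Apoe and C1qa lower, and Ctsk and Mmp9 are highest in the last range. Acp5 lies between 439 and 480.4 CPM throughout, but it is a selecting gene, so the rule shapes its level.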

How the data were processed

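The 2 libraries were analysed (1 PBS, 1 CFA), grouped by the sample labels. Per the submitters' processing notes, the authors aligned reads to mm10 and counted UMIs with Cell Ranger 7.0.1, and deposited raw counts per gene and barcode. Barcodes with at least 500 genes, at most 10% mitochondrial UMIs and at most 1% hemoglobin UMIs were kept. The libraries hold 5709 (CFA) and 7671 (PBS) barcodes with 53517206 and 51146169 UMIs.

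Members, comparison sets and 33 gene lists (373 genes, of which 371 were found) were chosen with earlier results of these data known. Genes named are those of the lists and the 10 highest and 10 lowest ratios (10 CPM added) per comparison, among genes with at least 100 CPM in 1 set, without mitochondrial, ribosomal, hemoglobin, immunoglobulin, selecting and predicted genes. Genes named for their correlation with Mmp12 and the Mmp12 ranges were chosen after their values were seen.

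Counts were summed over the cells of a set. CPM carry exact Poisson intervals, shares exact Clopper-Pearson intervals and ratios conditional binomial intervals, all at 95%. No test was made, because each group has 1 library. Thinning used seed 1. Python 3.11.15, numpy 2.4.6, scipy 1.17.1, pandas 2.3.3, scanpy 1.11.5 (with Scrublet) and matplotlib 3.10.9 were used, and the fold step was tested on simulated data. Gene positions are from the GENCODE annotation of GRCm38, and promoters from RefSeq. Alternatives were other limits on genes, mitochondrial, hemoglobin and selecting UMIs, no filter on low levels, thinned selection, no lineage limits, other thinning depths, 1 CPM added, median-ratio scaling, cell means and removal of the 5% highest doublet scores.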

Additional observations from a re-analysis of the deposited data

Results flagged for a closer look

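Barcodes outside the limits on genes, mitochondrial and hemoglobin UMIs, which no comparison used, also held the selecting transcripts. Of 1695 such CFA barcodes, 26 met the selection on UMIs (1.53%, exact 95% interval 1.0 to 2.24), against 1 of 5004 in the PBS library (0.0200%, 0.000506 to 0.111). Of the 26, 23 were over the mitochondrial limit and 3 over the hemoglobin limit. They had a median of 12001 UMIs, 14.2% mitochondrial UMIs and 8 Mmp12 UMIs.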

How the results depend on the processing

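No paired analysis was possible because each group is 1 library, and leaving out a library was not possible for the same reason. Of 72 alternative values for 16 results, 54 stayed within the limits set (1.5 times for gene counts, 0.1 for correlations, the exact interval of the main value for shares) and 18 moved. The CFA share of 7.67% was 8.69% with a minimum of 3 selecting UMIs, 6.73% with 10, 9.92% when cells were thinned to 5000 UMIs first, and 8.69% without the lineage limits. Of the myeloid cells alone it was 47.2%, a denominator chosen after seeing the data. The PBS share of 0.0375% was 0% with a minimum of 10 UMIs, after thinning, and without the 5% highest doublet scores, and 2.78% of 36 myeloid cells. The 431 genes lower than in C1q macrophages were 691 with 1 CPM added and 254 in cells of 10000 to 30000 UMIs, and the 839 lower than in Ly6c2/Ccr2 cells were 1380.0 with 1 CPM added. Thinned to 1000 UMIs, shares of selected cells with a UMI were 61.4% for Mmp12, 30.2% for Dcstamp, 31.5% for Acp5, 27.9% for Arg1, 60.4% for Spp1 and 6.17% for Ctsk. Median-ratio scaling shifted log2 differences by 0.12 against C1q macrophages, 0.24 against Ly6c2/Ccr2 cells and −0.084 against the other cells. Of 136 named genes called against C1q macrophages, 100 stayed at least 2-fold under that scaling, cell means and the depth window (the last chosen after seeing the data), and all 136 kept their direction. Against Ly6c2/Ccr2 cells, 140 of 157 stayed and all 157 kept their direction. Both counts include genes that chose the cells or the sets, such as Mmp12, Dcstamp, Acp5 and the C1q genes. The differences in those genes were set by how the cells were chosen. Folds (10 CPM added) against C1q macrophages that moved by over 1.5 times in the depth window while still called include Hmox1 (3.41 to 2.27), Mrc1 (0.0426 to 0.0748), Ccl12 (0.0745 to 0.150), Plac8 (0.205 to 0.333) and Cxcl10 (0.277 to 0.439), and against Ly6c2/Ccr2 cells Gpnmb (29.5 to 13.2), H2-M2 (45.5 to 21.9) and Atp6v0d2 (24.3 to 10.8). Differences in Ctsk and other rare genes rest on few UMIs per cell.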
